A study of Mus musculus with 9 samples.

Results

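The carnitine shuttle carries long-chain fatty acids into mitochondria, and 7 of its genes were followed among the 28965 gene symbols of the deposited table. They were taken by symbol: the carnitine palmitoyltransferases Cpt1a, Cpt1b, Cpt1c and Cpt2, the carnitine acetyltransferase Crat, and the carriers Slc25a20 and Slc22a5. The samples were 3T3-L1 cells, a clonal mouse line of wild-type fibroblasts that can become adipocytes, kept at confluence before treatment. For 24 h every group received 0.1 µg/mL insulin, 30 µg/mL isobutylmethylxanthine and 0.1 µg/mL dexamethasone. The OA_T0 group also received T0901317 at 5 µM, which activates the liver X receptors (LXR), together with oleic acid at 100 µM on albumin. The OA group received 100 µM oleic acid on albumin without the agonist, and the MDI group received albumin alone. Each group had 3 libraries of poly(A) RNA, and no group had the agonist without oleic acid. The labels do not say whether replicates came from separate cultures, so p-values measure the spread between these libraries, which may be technical.

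A long-chain acyl-CoA cannot cross the inner mitochondrial membrane. CPT1 on the outer membrane moves the acyl group to carnitine, SLC25A20 exchanges the acylcarnitine for free carnitine across the inner membrane, and CPT2 inside hands the acyl group back to coenzyme A for beta-oxidation. CPT1 is inhibited by malonyl-CoA, the product of acetyl-CoA carboxylase, which makes it a control point between burning and building fatty acids. SLC22A5 brings carnitine into the cell, and CRAT handles short acyl groups such as acetyl. Cpt1a, Slc25a20 and Cpt2 are textbook targets of the peroxisome proliferator-activated receptors (PPARs), which bind fatty acids.

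The values are normalised counts, that is, fragments assigned to a gene, for some genes in fractions, divided by 1 factor per library. Estimated depths were 18.0 to 29.3 M fragments in OA_T0, 21.4 to 29.3 M in OA and 25.6 to 59.9 M in MDI. A ribosomal RNA gene took 0.649% of the total in OA replicate 1 and 3.06% in OA_T0 replicate 3, against 4.40% to 5.96% in the other libraries. All 10 markers of fibroblasts and preadipocytes were detected, with a summed level of 288711 to 335747 in OA_T0, 327879 to 362131 in OA and 310915 to 336388 in MDI. Of these markers, 2 rose and 0 fell in OA against MDI, 1 rose and 3 fell in OA_T0 against OA, and 0 rose and 1 fell in OA_T0 against MDI. Pdgfra, a growth factor receptor of fibroblasts and preadipocytes, averaged 11816 ± 1667 in OA_T0, 18401 ± 437 in OA and 13276 ± 1212 in MDI (SD, n = 3 each). Its log2 fold change was 0.47 in OA against MDI (limma, adjusted p = 0.00406) and -0.65 in OA_T0 against OA (adjusted p = 1.53e-04). Zfp423, a preadipocyte transcription factor, also passed in both, with log2 fold changes of 0.59 (adjusted p = 0.0364) and -0.49 (adjusted p = 0.0497), but the first call was lost on leaving out MDI library 1 or 2 or any OA library (0.0746 to 0.185) and the second on leaving out any of these or OA_T0 library 2 or 3 (0.0519 to 0.184). These are the directions of Cpt1a, and their part in the results was not tested. The collagen gene Col3a1 fell in OA_T0 against OA (log2 fold change -0.40, adjusted p = 0.00325) and against MDI (-0.34, adjusted p = 0.0313, but 0.0519 to 0.179 on leaving out any OA_T0 library, OA library 1, or MDI library 1 or 2). Dlk1 rose in OA_T0 against OA with overlapping libraries (log2 fold change 0.28, adjusted p = 0.0444), a call lost on leaving out OA_T0 library 1 or 2, OA library 1 or 2, or MDI library 2 (0.0645 to 0.180). Of 8 adipocyte markers in the table, only Fabp4 and Lipe reached the level needed for testing. The adipocyte sum was 695 to 877 in OA_T0, 2200 to 2756 in OA and 434 to 609 in MDI, so it was highest in OA, as Cpt1a was, and its part in the results was not tested. Most of this sum was Fabp4, at 661 ± 72.9 in OA_T0, 2024 ± 312 in OA and 374 ± 81.4 in MDI. Lipe averaged 119 ± 24.2, 347 ± 23.6 and 122 ± 27.9 in the same order. Both genes passed as rises in OA against MDI and as falls in OA_T0 against OA. They are also on the list of other PPAR targets used below. No other adipocyte marker averaged more than 5.03 in any group. Adiponectin (Adipoq), which defines adipocytes, averaged 1.70 in OA_T0, 1.15 in OA and 3.67 in MDI. In bulk RNA, fewer cells of a type and less RNA per cell cannot be told apart. Sums of macrophage, endothelial, muscle and epithelial markers did not exceed 48.7, 20.7, 26.8 and 3.10 in any library, and Adgre1, Tie1, Myog and Ckm were listed at 0 throughout. Only 5 of 8 muscle and 2 of 6 epithelial markers were found among the gene symbols, so these sums are partial. Of 6 tested genes that report RNA quality and poly(A) selection, 0 passed in OA against MDI and in OA_T0 against MDI by limma, with 0 and 3 lower at an unadjusted p below 0.05. The 1 that fell in OA_T0 against OA was the nuclear RNA Neat1, at 2643 ± 528 in OA_T0 and 3293 ± 272 in OA with overlapping libraries (log2 fold change -0.33, adjusted p = 0.0431). Its call was lost with no filter on low values (0.160) and on leaving out OA_T0 library 1 or 3, OA library 1 or 2, or MDI library 1 or 2 (0.0545 to 0.163), and its part in the results was not tested. The LXR target Abca1, a cholesterol exporter, had a log2 fold change of 2.74 (adjusted p = 5.56e-12) in OA_T0 against OA. It was the largest rise among 12 tested genes on a list of LXR targets. Of these 12, 4 rose (Abca1, Mylip, Scd1 and Scd2), 0 fell and 8 did not pass. Over all tested genes, 8.27% rose and 6.84% fell. The log2 fold changes of the list ran from -0.35 to 2.74.

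The 3 members of the mitochondrial import route that passed the test, Cpt1a, Slc25a20 and Cpt2, were higher in OA than in MDI and lower in OA_T0 than in OA. Cpt1a stood out in size, at 5993 ± 143 in OA and 1321 ± 120.0 in MDI (SD, n = 3 each). Slc25a20 and Cpt2 changed in the same directions by smaller amounts. Crat, Slc22a5 and Cpt1c did not pass the test in any comparison, and Cpt1b was too low to be tested. The test was limma on log2(value + 1), with p-values adjusted over 15002 genes and 0.05 as the threshold. In OA against MDI, 3 of 6 tested members rose and 0 fell, where 3.43% of all tested genes rose and 3.36% fell, and at an unadjusted p below 0.05 the counts were 4 and 0. In OA_T0 against OA, 3 of 6 fell and 0 rose, where 6.84% of all tested genes fell and 8.27% rose, and the unadjusted counts were 3 and 0. In OA_T0 against MDI, 1 of 6 fell and 0 rose, where 1.36% of all tested genes fell and 1.25% rose, and the unadjusted counts were 1 and 1. The share of all tested genes at an unadjusted p below 0.05 was not computed. Unadjusted counts, here and for the markers and other lists, therefore have no background and are not read as results. The adjusted shares are also the background for the markers and the other gene lists. Members whose libraries did not overlap between groups numbered 4 higher and 0 lower in OA against MDI, beside 13.4% and 12.6% of all tested genes. They numbered 0 higher and 3 lower in OA_T0 against OA, beside 17.1% and 15%, and 1 higher and 1 lower in OA_T0 against MDI, beside 13.3% and 10.2%. The OA libraries enter the first pair of comparisons with opposite signs, so these counts are not independent of each other. The median log2 fold change of the tested members was 0.38 in OA against MDI, -0.29 in OA_T0 against OA and 0.05 in OA_T0 against MDI, beside 0.01, -0.00232 and 0.02 over all tested genes.

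**Figure D1:**
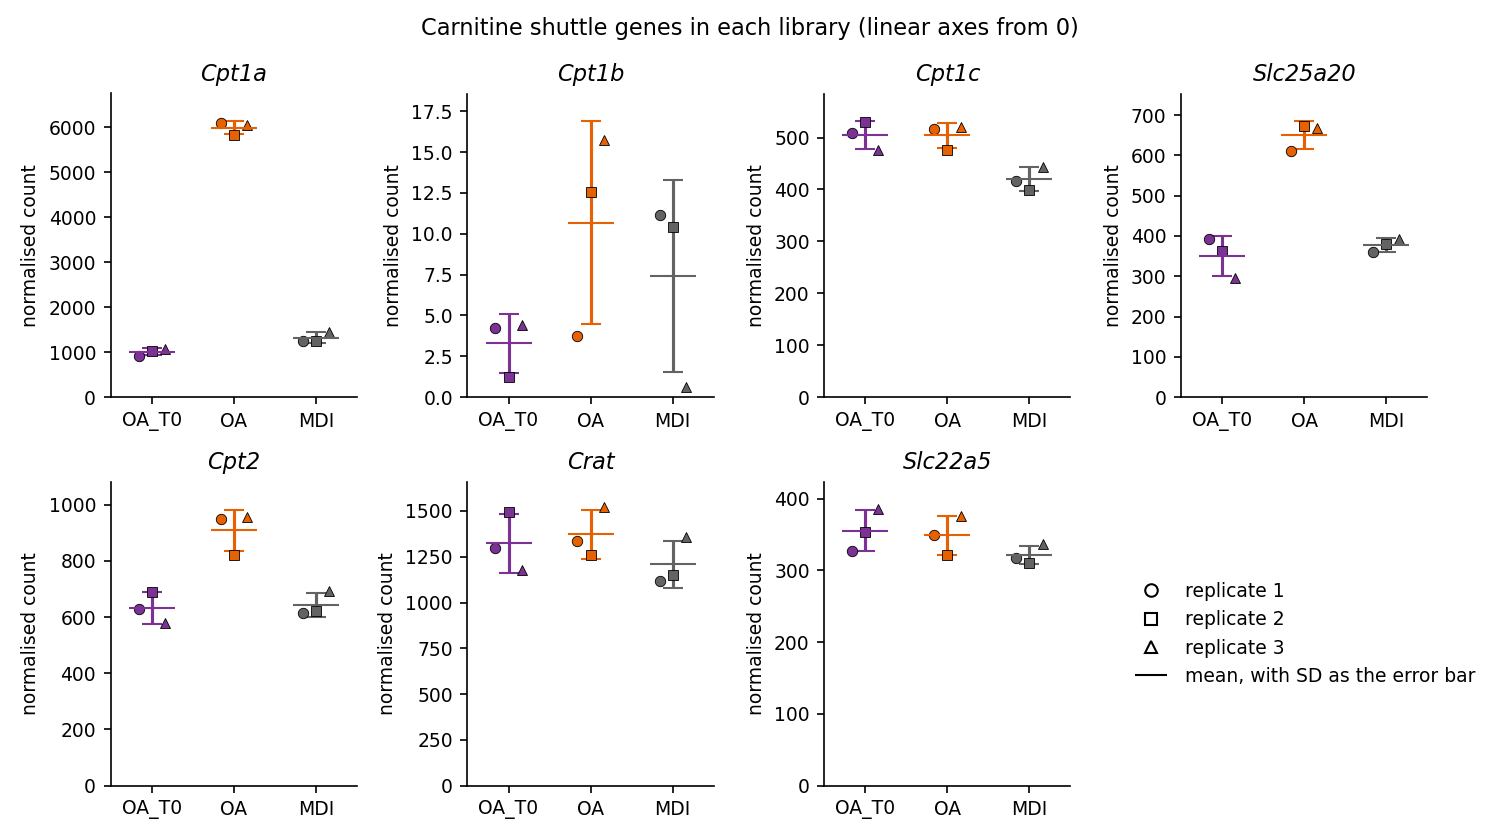
Normalised counts (vertical axes, linear from 0) of the 7 members in each library, by group, with symbols for replicates, horizontal lines for means and error bars for SD. Cpt1a, Slc25a20 and Cpt2 are highest in all 3 OA libraries, while the libraries of Crat, Slc22a5 and Cpt1c overlap between OA_T0 and OA.

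Cpt1a encodes the CPT1 form that predominates in liver and many other tissues. Its normalised counts were 919, 1033 and 1080.1 in the OA_T0 libraries, 6098, 5829.7 and 6050.2 in the OA libraries, and 1258, 1245 and 1459 in the MDI libraries. All 3 OA libraries lay far above every other library, and all 3 OA_T0 libraries lay below every MDI library. Against MDI, Cpt1a rose 4.55-fold in OA on the log2(value + 1) scale (log2 fold change 2.18, SE 0.07, adjusted p = 7.98e-11). By size this was rank 10 among the rises of all tested genes. Against OA, it was 5.94-fold lower in OA_T0 (log2 fold change -2.57, SE 0.07, adjusted p = 5.56e-12), rank 8 among the falls. Cpt1a was also lower in OA_T0 than in MDI, with a log2 fold change of -0.39 (SE 0.07, 95% interval -0.54 to -0.23, adjusted p = 0.0117). This last call was lost without OA_T0 replicate 1 (log2 fold change -0.32, adjusted p = 0.103) and when genes of low value were not filtered out (adjusted p = 0.0826). Without the pair of libraries low in ribosomal RNA, the log2 fold changes of Cpt1a were 2.17 in OA against MDI, -2.61 in OA_T0 against OA and -0.44 in OA_T0 against MDI, and all passed.

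Slc25a20 encodes the carnitine-acylcarnitine translocase of the inner membrane. It had 393, 363 and 296 normalised counts in OA_T0, 611, 672 and 668 in OA, and 360.1, 379.7 and 393 in MDI. The OA libraries stood above all others, and the OA_T0 and MDI libraries overlapped. It rose 1.72-fold in OA against MDI (log2 fold change 0.78, SE 0.10, adjusted p = 2.74e-04) and fell 1.86-fold in OA_T0 against OA (log2 fold change -0.90, SE 0.10, adjusted p = 3.25e-05). Between OA_T0 and MDI the log2 fold change was -0.12, with a 95% interval from -0.34 to 0.10.

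Cpt2 encodes the transferase on the matrix side of the inner membrane. Its normalised counts were 630.1, 691 and 578 in OA_T0, 947, 822 and 954 in OA, and 613, 622 and 692 in MDI. Again the OA libraries did not overlap with either of the other groups, which overlapped with each other. Cpt2 rose 1.41-fold in OA against MDI (log2 fold change 0.50, SE 0.09, adjusted p = 0.00312) and fell 1.43-fold in OA_T0 against OA (log2 fold change -0.52, SE 0.09, adjusted p = 0.00109). Between OA_T0 and MDI it had a log2 fold change of -0.02, with a 95% interval from -0.21 to 0.16. Both calls of Slc25a20 and both of Cpt2 held with each library left out in turn, up to adjusted p = 0.0257 for Cpt2 in OA against MDI.

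The 250 bases before the annotated start are shown for these 3 genes because they moved together. The sequences are from RefSeq on GRCm38.p6, a build other than the mm9 named in the submitters' notes, and run 5′ to 3′ on the gene's strand. Of the 7 members, 5 had an entry in the promoter table: Cpt1a, Cpt1c, Cpt2, Slc25a20 and Slc22a5. Capitals mark every match, on either strand, to any of 3 elements. These are the GC box GGGCGG, the CCAAT box with the letters CCAAT, and the nuclear receptor element AGGTCA.
Cpt1a, chr19:3323051-3323300, plus strand: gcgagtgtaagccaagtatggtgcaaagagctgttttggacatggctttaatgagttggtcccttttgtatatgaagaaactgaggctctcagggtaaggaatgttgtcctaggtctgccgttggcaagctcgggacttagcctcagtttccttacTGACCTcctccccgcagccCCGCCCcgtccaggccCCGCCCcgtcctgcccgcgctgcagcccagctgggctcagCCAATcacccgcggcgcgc
Slc25a20, chr9:108661886-108662135, plus strand: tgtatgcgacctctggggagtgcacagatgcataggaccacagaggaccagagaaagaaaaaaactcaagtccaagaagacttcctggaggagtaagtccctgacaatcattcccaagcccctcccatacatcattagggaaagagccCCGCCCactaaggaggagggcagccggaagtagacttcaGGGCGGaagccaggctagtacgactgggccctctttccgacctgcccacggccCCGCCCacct
Cpt2, chr4:107923590-107923839, minus strand: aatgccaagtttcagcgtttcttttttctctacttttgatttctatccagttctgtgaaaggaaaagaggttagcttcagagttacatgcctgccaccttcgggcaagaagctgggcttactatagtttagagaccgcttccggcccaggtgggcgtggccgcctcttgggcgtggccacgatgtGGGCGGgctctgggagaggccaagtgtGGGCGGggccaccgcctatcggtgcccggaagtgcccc

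The window of Cpt1a held 2 GC boxes, 1 CCAAT box and 1 AGGTCA element in the opposite orientation. That of Slc25a20 held 3 GC boxes and that of Cpt2 held 2, with no CCAAT box or AGGTCA element in either. Members that did not pass the test held such elements too. The window of Cpt1c held 1 GC box, 1 CCAAT box and 1 AGGTCA element, and that of Slc22a5 held 3 GC boxes. Of 32851 windows of the same length in the table, 32.7% held the GC box, 33.85% the CCAAT box and 14.02% the AGGTCA element. These shares were not matched for base composition. G and C made up 59.6% of the Cpt1a window, 56.8% of those of Slc25a20 and Cpt2, and 73.6% of that of Slc22a5. The Cpt1c window had 44.0%, and the median over all windows was 52.4%. A pair of AGGTCA elements as a direct repeat with 1 base between them, the arrangement bound by PPAR with its partner RXR, was in 0.033% of all windows, and a looser form with any base at the fourth place of each element in 0.338%. The direct repeat with 4 bases between, bound by LXR with RXR, was in 0.015%. The TATA box TATAAA was in 12.4% and the element TGATGNAA, bound by ATF4 with C/EBP factors, in 3.45%. None of these 5 arrangements was found in the windows of the 5 members matched. Every repeat in the strict form also counts as an AGGTCA element, and a missing match says only that these letters are not in this window.

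Cpt1c encodes the CPT1 form best known from neurons, where it sits in the endoplasmic reticulum and has little transferase activity. It had 508, 529.8 and 476 normalised counts in OA_T0, 516, 476 and 521 in OA, and 417, 399 and 444 in MDI. All 6 libraries with oleic acid lay above the 3 MDI libraries, and OA_T0 and OA overlapped. The log2 fold change was 0.26 in OA against MDI (95% interval 0.09 to 0.44, adjusted p = 0.0742) and 0.26 in OA_T0 against MDI (95% interval 0.09 to 0.44, adjusted p = 0.114), so neither passed. Between OA_T0 and OA the difference was 0.000878 on the log2 scale, with a 95% interval from -0.18 to 0.18. An antisense gene, 6530437J22Rik, overlaps Cpt1c in the annotation, and its mean did not exceed 2.52 in any group.

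Cpt1b encodes the CPT1 form of muscle and brown fat. Its normalised counts were 4.22, 1.22 and 4.43 in OA_T0, 3.75, 12.6 and 15.7 in OA, and 11.2, 10.4 and 0.649 in MDI. The groups overlapped, and libraries of 1 group differed by more than the group means did. The values of OA_T0 replicates 2 and 3 and of MDI replicate 3 lay under the worth of 3 fragments in their libraries, which was 3.02, 4.62 and 3.38. The mean over all libraries, 7.13, was under the filter of 10, so Cpt1b is the member left out of the counts above. Exact two-sided permutation tests gave p = 0.5 for OA against MDI, p = 0.3 for OA_T0 against OA and p = 0.6 for OA_T0 against MDI, where 3 libraries against 3 cannot give less than 0.1. A protein-coding gene model on the same strand, Gm44502, shares exons with Cpt1b and averaged 43.0 ± 6.67 in OA_T0, 29.3 ± 10.2 in OA and 13.5 ± 6.66 in MDI. The estimated fragments of Cpt1b were not whole numbers, at 9.37 and 15.7 in OA replicates 2 and 3, while those of Cpt1a were close to whole. How fragments were divided between Cpt1b and Gm44502 is not given in the sources used here, so the level of Cpt1b is uncertain.

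Crat encodes the carnitine acetyltransferase. It had 1299.5, 1494 and 1177 normalised counts in OA_T0, 1333, 1259.9 and 1522 in OA, and 1116, 1150.0 and 1357 in MDI. All 3 groups overlapped. The log2 fold change was 0.18 in OA against MDI (95% interval -0.02 to 0.39), -0.05 in OA_T0 against OA (-0.26 to 0.15) and 0.13 in OA_T0 against MDI (-0.08 to 0.34). Dolpp1 and an antisense gene overlap Crat on the opposite strand. The libraries kept strand, but whether the counting used it is not given in the sources used here.

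Slc22a5 encodes OCTN2, the sodium-dependent carnitine transporter of the plasma membrane. Its normalised counts were 328, 353 and 386 in OA_T0, 349, 321 and 376 in OA, and 318, 311 and 336 in MDI, so the groups overlapped. The log2 fold change was 0.12 in OA against MDI (95% interval -0.09 to 0.32), 0.03 in OA_T0 against OA (-0.18 to 0.24) and 0.14 in OA_T0 against MDI (-0.07 to 0.35). The first pair of intervals leave out changes as large as those of Slc25a20, though not small ones. Slc22a5 has close paralogs, Slc22a4 and Slc22a21, and fragments shared between such copies cannot be assigned with certainty. Its estimated fragments were also fractional, at 316.5 in OA_T0 replicate 1.

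**Figure D2:**
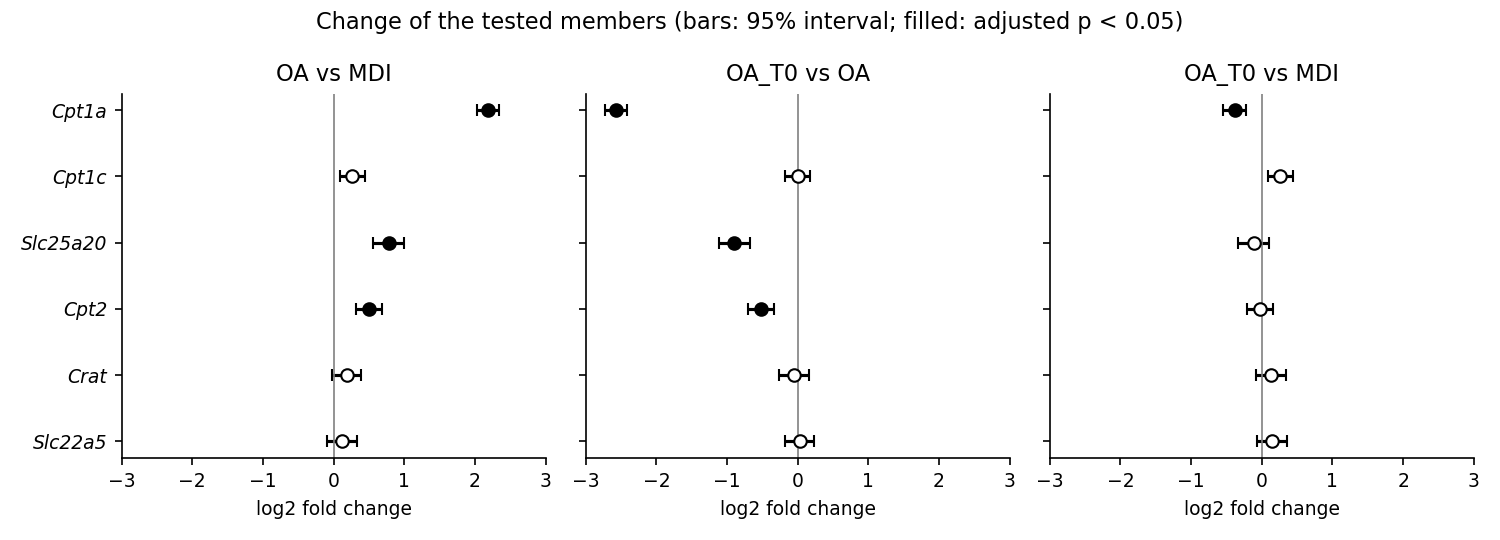
Log2 fold changes (horizontal axes) of the 6 tested members in the 3 comparisons, with 95% intervals from limma as bars and filled symbols for adjusted p below 0.05. Cpt1a reaches 2.18 for OA vs MDI and -2.57 for OA_T0 vs OA, with Slc25a20 and Cpt2 on the same sides at smaller sizes.

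Levels were compared between genes after division by the length of the longest annotated transcript, as normalised counts per kb. In OA, Cpt1a was the most abundant member at 1388 ± 33.1 per kb, apart from Cpt2 at 383 ± 31.3 per kb. In MDI, Cpt1a (306 ± 27.8 per kb), Crat (286 ± 30.8) and Cpt2 (271 ± 18.2) followed each other with overlapping libraries. In OA_T0 the order by level was Crat (313 ± 37.8 per kb), Cpt2 (267 ± 23.8) and Cpt1a (234 ± 19.2), each overlapping with its neighbour. Slc25a20 stood at 127 ± 18.1 per kb in OA_T0, 236 ± 12.5 in OA and 137 ± 6.06 in MDI. It lay below Cpt1c in OA_T0, where Cpt1c had 155 ± 8.29 per kb, and above it in OA, where Cpt1c had 155 ± 7.46. In MDI its libraries overlapped with those of Cpt1c (129 ± 6.88 per kb). The order depends on the length used. With the union of a gene's exons as the length, an alternative chosen after seeing the data, Cpt1a had 132 ± 10.8 per kb in OA_T0, 784 ± 18.7 in OA and 173 ± 15.7 in MDI. It was still apart above Cpt2 (380 ± 31.0 per kb) in OA. In MDI it then lay apart below Cpt2 (269 ± 18.0 per kb) and Crat (224 ± 24.1), and in OA_T0 apart below Cpt2 (265 ± 23.6) and Crat (246 ± 29.7), which overlapped each other there. By the longest transcript, Cpt1c and Slc22a5 lay between 101 and 162 per kb in all 9 libraries, and Cpt1b did not exceed 5.43 per kb.

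**Figure D3:**
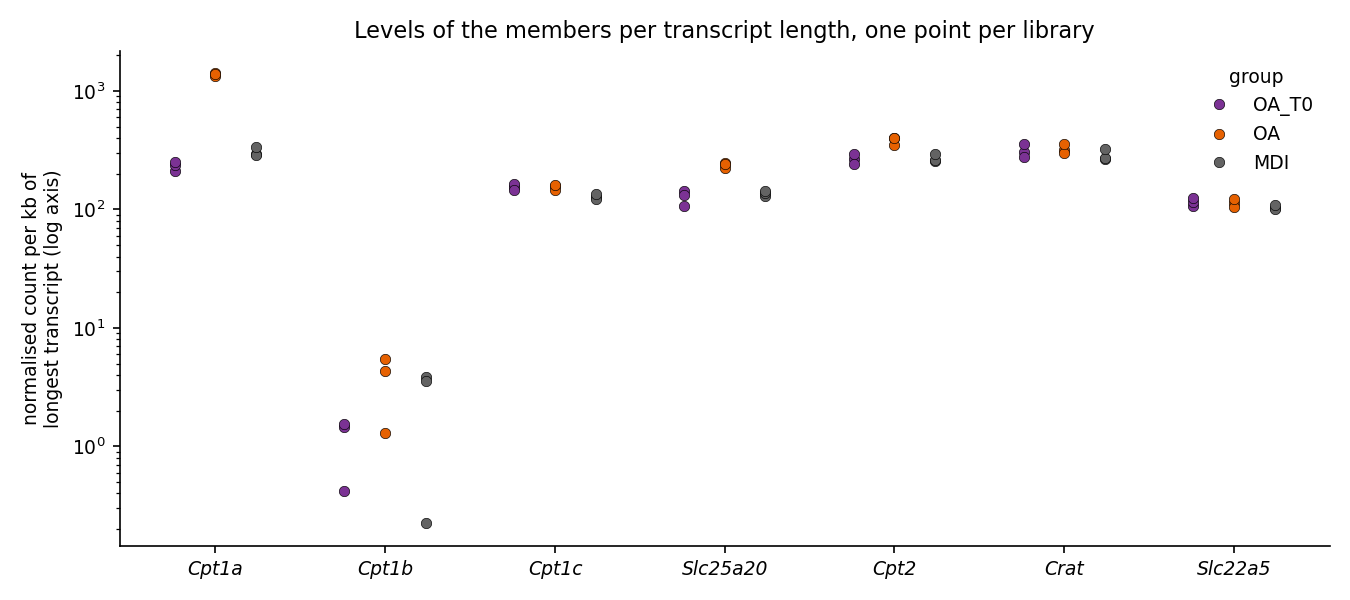
Normalised counts per kb of the longest transcript (vertical axis, log scale) for each member, with 1 point per library and colours for OA_T0, OA and MDI. Cpt1a in OA stands above all other members, at 1350.4 to 1413 per kb, and Cpt1b lies at the bottom in every group.

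The make-up of CPT1 RNA shifted with Cpt1a. Per unit of length, Cpt1a made up 60.0% ± 2.73 of the summed CPT1 level in OA_T0, 89.8% ± 0.272 in OA and 69.9% ± 1.23 in MDI (SD, n = 3 each). Cpt1c made up 39.7% ± 2.76 in OA_T0, 10.00% ± 0.238 in OA and 29.5% ± 0.766 in MDI. Cpt1b accounted for at most 0.912% in any library. The Cpt1a shares of the 3 groups did not overlap, and in each of the 3 comparisons the exact two-sided permutation test gave p = 0.1, the smallest that 3 libraries against 3 allow. A share within a library does not depend on how libraries are scaled, but it does depend on the transcript lengths chosen.

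**Figure D4:**
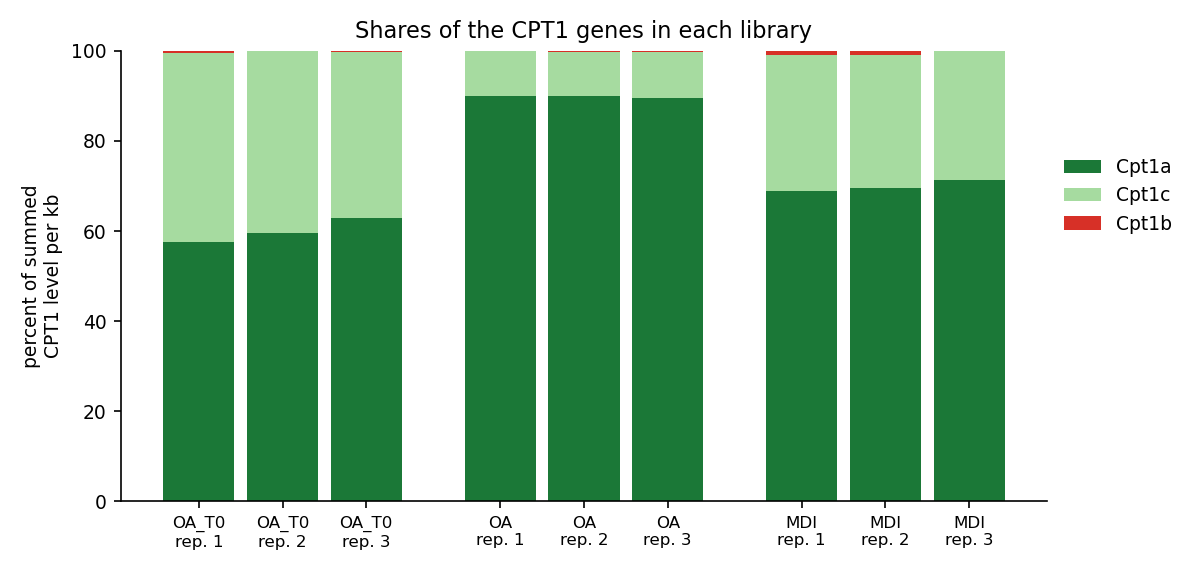
Percent of the summed CPT1 level per kb (vertical axis) taken by Cpt1a, Cpt1c and Cpt1b in each library, in the order OA_T0, OA and MDI. Cpt1a takes 57.5% to 62.9% in the OA_T0 libraries, 89.5% to 90.0% in the OA libraries and 68.9% to 71.3% in the MDI libraries.

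The outer and inner membrane transferases moved unequally. The log2 ratio of Cpt1a to Cpt2 within a library was 0.67 ± 0.20 in OA_T0, 2.72 ± 0.09 in OA and 1.04 ± 0.04 in MDI (SD, n = 3 each). The difference was 1.69 for OA minus MDI, -2.05 for OA_T0 minus OA and -0.36 for OA_T0 minus MDI. The groups did not overlap, and each exact two-sided permutation test gave p = 0.1, again the smallest possible.

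Carnitine supply and the other carnitine enzymes were described by a list of 9 genes, of which 7 were in the table and 5 were tested. In OA against MDI 2 rose and 0 fell by limma, and at an unadjusted p below 0.05 the counts were also 2 and 0. Over all tested genes, 3.43% rose and 3.36% fell by adjusted p. Aldh9a1, an enzyme of carnitine synthesis, averaged 1475 ± 107 in OA and 864 ± 12.9 in MDI (log2 fold change 0.77, adjusted p = 4.04e-06). Crot, which makes acylcarnitines in peroxisomes, averaged 2266 ± 25.6 in OA and 1874 ± 205 in MDI (log2 fold change 0.28, adjusted p = 0.0354). In OA_T0 against OA the same 2 genes fell and 0 rose (2 and 1 at an unadjusted p below 0.05), with Aldh9a1 at 882 ± 18.2 in OA_T0 (log2 fold change -0.74, adjusted p = 3.25e-06) and Crot at 1871 ± 100.4 (log2 fold change -0.28, adjusted p = 0.0212). The call of Crot depended on single libraries. In OA against MDI it was lost on leaving out MDI library 1 or 2 (adjusted p = 0.147 and 0.0911), OA library 1, 2 or 3 (0.0904, 0.0842 and 0.0836) or the first of OA_T0 (0.0577). In OA_T0 against OA it was lost on leaving out OA_T0 library 1 or 3 (adjusted p = 0.0777 and 0.0695) or OA library 1 or 2 (0.0613 and 0.0589). The median log2 fold change of the list was 0.28 in OA against MDI and 0.11 in OA_T0 against OA. In OA_T0 against MDI 0 members passed in either direction, also without adjustment.

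The mitochondrial beta-oxidation enzymes, which act on the acyl-CoA that CPT2 releases, were a list of 19 genes, all tested. In OA against MDI 9 rose and 0 fell (12 and 0 at an unadjusted p below 0.05, for which no share over all tested genes was computed). Over all tested genes, 3.43% rose and 3.36% fell by adjusted p. The list had a median log2 fold change of 0.33, close to the 0.38 of the shuttle. Acaa2, the mitochondrial thiolase, averaged 2225 ± 142 in OA and 903 ± 72.8 in MDI (log2 fold change 1.30, adjusted p = 1.05e-07). Acadl, the long-chain acyl-CoA dehydrogenase, averaged 3002 ± 84.9 in OA and 1519 ± 56.1 in MDI (log2 fold change 0.98, adjusted p = 4.57e-08). Eci2, an enoyl-CoA isomerase, averaged 2683 ± 209.9 in OA and 1512 ± 135 in MDI (log2 fold change 0.83, adjusted p = 5.02e-06). In OA_T0 against OA 8 fell and 1 rose, with a median of -0.20, where 6.84% of all tested genes fell and 8.27% rose. Acaa2 fell to 910.05 ± 80.0 in OA_T0 (log2 fold change -1.29, adjusted p = 6.01e-08), Acadl to 1582 ± 12.0 (-0.92, adjusted p = 4.15e-08) and Eci2 to 1702 ± 12.0 (-0.65, adjusted p = 2.72e-05). The gene that rose was Echs1, the enoyl-CoA hydratase, at 2203 ± 87.1 in OA_T0 and 1744 ± 189.9 in OA (log2 fold change 0.34, adjusted p = 0.00987), and without OA replicate 1 the list had 0 rises. Hadha and Hadhb, the subunits of the trifunctional protein, passed in neither comparison. In OA_T0 against MDI 0 fell, also without adjustment, and Echs1 alone passed as a rise (adjusted p = 0.0425). At an unadjusted p below 0.05 the rises numbered 4. The call of Echs1 was lost on leaving out OA_T0 library 1 or 2 (0.178 and 0.100), MDI library 1 or 2 (0.162 and 0.200) or OA library 1 (0.0514).

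**Figure D5:**
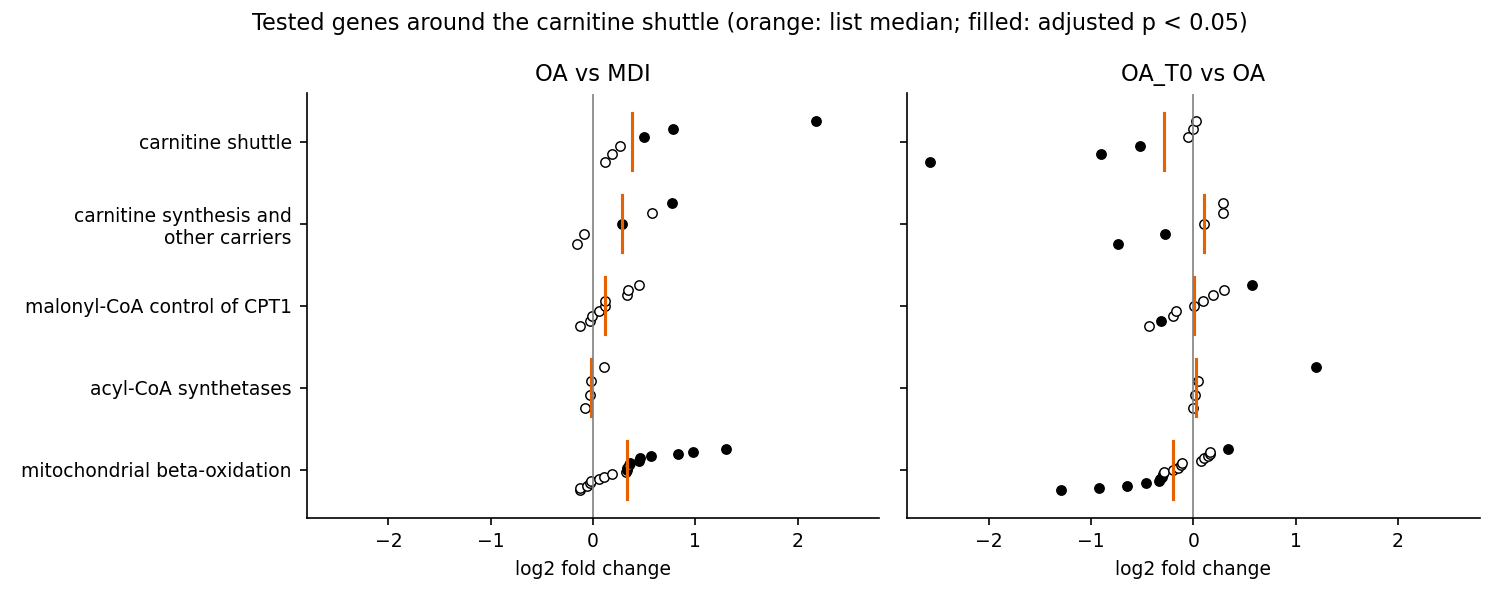
Log2 fold changes (horizontal axes) of the tested genes of 5 lists, for OA vs MDI (left) and OA_T0 vs OA (right), with 1 point per gene, filled for adjusted p below 0.05, and orange lines at list medians. Cpt1a is the outermost point of all lists in both panels, and the beta-oxidation median lies at 0.33 on the left and -0.20 on the right.

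Malonyl-CoA control of CPT1 was described by 9 genes for acetyl-CoA carboxylase, malonyl-CoA decarboxylase and the kinase AMPK, all tested. In OA against MDI 0 passed in either direction by limma, and 2 rose and 0 fell at an unadjusted p below 0.05. Leaving out MDI library 3 gave 2 rises, and leaving out OA library 2 or OA_T0 library 3 gave 1. In OA_T0 against OA, Acaca, the carboxylase that makes cytosolic malonyl-CoA, rose to 4494 ± 133 in OA_T0, against 3016 ± 153 in OA (log2 fold change 0.58, adjusted p = 1.45e-05). It was also higher in OA_T0 than in MDI, where it averaged 2788 ± 158 (log2 fold change 0.69, adjusted p = 7.01e-06). Cpt1a and Acaca thus changed in opposite directions between OA_T0 and OA. Acacb, the other acetyl-CoA carboxylase gene of the list, averaged 230 ± 32.7 in OA_T0 and 263 ± 25.9 in OA. It did not pass by limma (log2 fold change -0.20, adjusted p = 0.288). A link between the carboxylases and Cpt1a was not tested. Prkag2, an AMPK subunit, fell in OA_T0 against OA (log2 fold change -0.32, adjusted p = 0.0395). Its call was lost with no filter on low values (adjusted p = 0.0885) and on leaving out any OA_T0 library (adjusted p = 0.0963, 0.0682 and 0.0888 for libraries 1, 2 and 3), OA library 1 or 3 (0.173 and 0.0828) or MDI library 2 (0.0525). The list median was 0.11 in OA against MDI, 0.01 in OA_T0 against OA and 0.07 in OA_T0 against MDI.

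Acyl-CoA synthetases of the long-chain family make the substrate of CPT1, and 4 of 5 were in the table and tested. In OA against MDI 0 passed, and 0 had an unadjusted p below 0.05, although 1 passed without OA replicate 3. In OA_T0, Acsl3 alone passed, at 2607 ± 138 in OA_T0, against 1136 ± 78.9 in OA (log2 fold change 1.20, adjusted p = 3.61e-08) and 1199 ± 71.8 in MDI (log2 fold change 1.12, adjusted p = 3.10e-07).

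Among the PPAR receptors and their coactivators, 7 of 8 were tested, and Ppara averaged 4.08 in OA_T0, 8.45 in OA and 5.35 in MDI, too low for testing. Ppard averaged 819 ± 56.4 in OA_T0, 769.9 ± 56.7 in OA and 754 ± 46.1 in MDI and did not pass. Of the 7, 1 rose and 1 fell in OA against MDI. Rxra, the partner with which PPARs bind DNA, averaged 5698 ± 345 in OA and 4750.1 ± 339 in MDI (log2 fold change 0.26, adjusted p = 0.0428), the direction of Cpt1a. Pprc1, a coactivator related to PGC-1, averaged 2484 ± 107 in OA and 2966 ± 182 in MDI (log2 fold change -0.25, adjusted p = 0.0204). Leaving out MDI library 1 or 2, or OA library 1 or 2, ended both calls (adjusted p = 0.0632 to 0.182 for Rxra and 0.0675 to 0.100 for Pprc1), as did the lack of a filter on low values (0.146 and 0.0598). The call of Rxra was also lost without OA library 3 (0.144) or OA_T0 library 1 (0.0693). Of the 7, 3 rose in OA_T0 against OA (2 without OA_T0 replicate 1, and 1 without the pair of libraries low in ribosomal RNA), among them Pparg, at 1185 ± 37.7 in OA_T0 and 964 ± 44.4 in OA (log2 fold change 0.30, adjusted p = 0.00558), opposite in direction to Cpt1a. The call of Pparg was lost without this pair of libraries (adjusted p = 0.0911). Pparg was also higher in OA_T0 than in MDI (log2 fold change 0.33, adjusted p = 0.0127). This was lost without OA_T0 library 1 or MDI library 1 or 2 (0.0525 to 0.103). Ppargc1b, low in value, had 25.8 ± 7.42 in OA_T0 and 9.27 ± 1.98 in OA (1.37, adjusted p = 0.0172, but 0.103 without OA_T0 library 1). Pprc1 had 3005 ± 96.4 in OA_T0 against 2484 ± 107 in OA (0.28, adjusted p = 0.00689, but 0.100 without this pair).

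The genes whose profiles lay nearest to that of Cpt1a were found by the root mean square difference of centred log2(value + 1) over the 9 libraries. Plin2, a coat protein of lipid droplets, was nearest at 0.24, with means of 1386 ± 31.4 in OA_T0, 5673 ± 412 in OA and 1430.1 ± 152 in MDI. Acsbg1, an acyl-CoA synthetase, followed at 0.24, with 36.9 ± 5.27 in OA_T0, 188 ± 24.7 in OA and 34.0 ± 4.51 in MDI. Mmp3, a matrix metalloproteinase, lay at 0.31, with 38.2 ± 6.96 in OA_T0, 149 ± 12.0 in OA and 47.8 ± 4.77 in MDI. The secreted protease Htra3 and the matrix protein Spon2 lay at 0.33 and 0.36. None of these 5 genes was on a list of beta-oxidation enzymes or of carnitine enzymes. Plin2 was on a list of 17 other PPAR targets, of which 14 were tested. In OA against MDI 10 of them rose and 1 fell, beside 3.43% and 3.36% of all tested genes. In OA_T0 against OA 9 fell and 1 rose, beside 6.84% and 8.27%. The list medians were 1.20 and -1.21. The part of PPARs in these changes was not tested. The profile of Cpt1b had its nearest genes at 0.58 to 0.65, all of them low in value.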

How the data were processed

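Poly(A) RNA of 9 libraries was measured, 3 each for OA_T0, OA and MDI. The deposited unit is a signal per gene symbol, namely fragment counts, often fractional, that the authors scaled by 1 divisor for each library. Per the submitters' processing notes, the build was mm9 and the tools included DESeq2, HTSeq, TopHat and CASAVA 1.8.2, whose roles are not given. The commonest low value of a library was taken as the worth of 1 fragment, which gave the estimated depths. Between 5 and 50 fragments, 64.0% to 70.3% of values were whole multiples within 0.05, so whole reads were not recovered and no count test was run. Floors of 3 fragments cover counting error only.

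Values were taken as log2(value + 1), which understates changes of low genes. The 15002 genes with a mean of at least 10 entered limma 3.58.1 (R 4.3.3), using its intensity trend and a common spread over the 3 groups. P-values were two-sided, with Benjamini-Hochberg adjustment over the genes of a comparison, and the procedure was tested on simulated data. Lengths and overlaps came from GENCODE M21 and promoters from RefSeq on GRCm38.p6. Both differ from the authors' build, so no other positions are given.

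The members and lists were chosen with earlier results of these data known. Named genes were all members, passing members without overlap in each list (up to 4 per comparison) and the 5 profiles nearest to Cpt1a. Gm44502, 6530437J22Rik and Dolpp1 were named for overlapping a member, and Slc22a4 and Slc22a21 as paralogs. Acacb, Adipoq, Dlk1, Neat1, Echs1 in OA_T0 against OA, Hadha, Hadhb, Ppara, Ppard and the markers at 0 were named after their values were seen. Alternatives changed the pseudocount (0.5 or 5), the filter (none, or a mean of 50), the scaling (quantiles or equal totals), the fit (the compared groups alone, robust variance, or a replicate block), the transcript length, or the libraries included. Levels per kb of the exon union were added after the data were seen.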

Additional observations from a re-analysis of the deposited data

How the results depend on the processing

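Over 366 values of the members under alternatives, 347 kept their direction and their side of the threshold, 2 lost a call and 17 changed sign, all of these without a call. The calls of Cpt1a, Slc25a20 and Cpt2 in OA against MDI and in OA_T0 against OA held under every alternative run. The count of members that fell in OA_T0 against MDI was 1, and it was 0 with no filter and 0 to 1 on leaving out libraries, since the call of Cpt1a was then lost. Of 1253 values of the other named genes, 1135 kept their call, 118 lost it and 0 changed sign.

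Over all genes, 514 rose and 504 fell in OA against MDI, 1240 and 1026 in OA_T0 against OA, and 188 and 204 in OA_T0 against MDI. With no filter, 233 rose and 234 fell in OA against MDI, 620 fell in OA_T0 against OA, and 72 rose and 38 fell in OA_T0 against MDI. Robust variance gave 132 falls in OA_T0 against MDI. On leaving out libraries, rises ranged from 211 to 658 and falls from 155 to 639 in OA against MDI, rises from 524 to 1443 and falls from 402 to 1239 in OA_T0 against OA, and rises from 66 to 284 and falls from 44 to 247 in OA_T0 against MDI. The lowest counts in OA_T0 against OA were those without OA replicate 1 and OA_T0 replicate 3 together.

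Signs changed only for differences near 0 or for Cpt1b. The log2 fold change of Cpt1c in OA_T0 against OA was -0.040 with quantile normalisation and -0.017 with equal totals, and -0.040 to 0.059 on leaving out libraries. Leaving out libraries also gave -0.088 to 0.040 for Cpt2 and -0.20 to 0.0013 for Slc25a20 in OA_T0 against MDI. In OA_T0 against OA it gave -0.14 to 0.027 for Crat and -0.033 to 0.084 for Slc22a5. For Cpt1b in OA against MDI the range was -0.20 to 1.30, the lowest without MDI replicate 3. The cause of these changes was not tested.

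Deviations of same-numbered libraries correlated between -0.26 and 0.26, and those of differently numbered libraries between -0.23 and 0.25. These similar ranges show no pairing by replicate number, but the labels do not say how replicates were run. With the replicate block, every call of a member was kept, with adjusted p = 0.00961 for Cpt1a in OA_T0 against MDI and 0.00866 for Cpt2 in OA against MDI. Among the other genes named, it ended the calls of Prkag2 in OA_T0 against OA (0.0622), Dlk1 there (0.0684), Rxra in OA against MDI (0.0686), Col3a1 in OA_T0 against MDI (0.0669) and Zfp423 in OA against MDI (0.0539) and OA_T0 against OA (0.0664). Shares and ratios rest on 3 libraries a group and cannot reach a smaller exact permutation p than 0.1. Cpt1b is limited by depth, at 0.576 to 24.8 estimated fragments per library.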
